A study of Homo sapiens with 6 samples.

Results

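The 9 septin genes SEPTIN2, SEPTIN4, SEPTIN5, SEPTIN6, SEPTIN7, SEPTIN8, SEPTIN9, SEPTIN10 and SEPTIN11 were followed in ARPE-19 cells, an established human retinal pigment epithelium (RPE) line, with and without a knockout of POLDIP2. They were taken by symbol from a table of 37902 genes that holds 13 protein-coding septin genes, and they were chosen with the difference between the lines in view, so their values are a description with no test. The unmodified line (WT) and the knockout line (POLDIP2 KO) were each sequenced as 3 biological replicates after 3 days of regular culture, 6 stranded mRNA libraries in all. The POLDIP2 KO line was made with a lentivirus (lentiCRISPRv2) that carries SpCas9 and a guide RNA to POLDIP2, followed by puromycin selection and expansion. Whether it is 1 clone is not given in the sources used here, and the WT cells are not described as having had virus or puromycin, so the loss of POLDIP2 cannot be told apart from those steps. Both lines share the ARPE-19 background and medium.

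Septins are GTP-binding cytoskeletal proteins that join end to end into hetero-oligomers, filaments and rings on membranes, actin and microtubules. Each oligomer is built from subunits of different subgroups: the SEPTIN2 group (SEPTIN2, SEPTIN4 and SEPTIN5 here), the SEPTIN6 group (SEPTIN6, SEPTIN8, SEPTIN10 and SEPTIN11), SEPTIN7, and the SEPTIN3 group, to which SEPTIN9 belongs. Septin filaments scaffold the cleavage furrow in cell division and the base of the primary cilium, and in epithelia they guide vesicle traffic along microtubules. SEPTIN4 also encodes ARTS, a short mitochondrial isoform that binds the caspase inhibitor XIAP and promotes apoptosis.

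SEPTIN4 (ENSG00000108387) lies at chr17:58520250-58544368 on the minus strand of GRCh38, on the chromosome that also holds POLDIP2, with 30186.8 kb between their start sites. The RefSeq promoter table (GRCh38.p14), which gives 250 bases before and 50 bases after a start site, matched 8 of the 9 genes with 25 windows, 4 of them for SEPTIN4. The sequences below are the 4 SEPTIN4 windows and the only windows of SEPTIN10 and SEPTIN11, the 3 genes for which no POLDIP2 KO library overlapped a WT library. Each is written 5′ to 3′ on the strand of its gene, and the capitals mark CG dinucleotides.
SEPTIN4 start 1, chr17:58544279-58544578, minus strand: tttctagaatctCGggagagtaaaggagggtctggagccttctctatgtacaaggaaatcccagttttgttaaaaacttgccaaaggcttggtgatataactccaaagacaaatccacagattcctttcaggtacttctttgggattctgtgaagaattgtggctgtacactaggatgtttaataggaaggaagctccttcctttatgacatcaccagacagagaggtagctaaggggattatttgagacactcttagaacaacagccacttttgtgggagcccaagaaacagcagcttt
SEPTIN4 start 2, chr17:58532011-58532310, minus strand: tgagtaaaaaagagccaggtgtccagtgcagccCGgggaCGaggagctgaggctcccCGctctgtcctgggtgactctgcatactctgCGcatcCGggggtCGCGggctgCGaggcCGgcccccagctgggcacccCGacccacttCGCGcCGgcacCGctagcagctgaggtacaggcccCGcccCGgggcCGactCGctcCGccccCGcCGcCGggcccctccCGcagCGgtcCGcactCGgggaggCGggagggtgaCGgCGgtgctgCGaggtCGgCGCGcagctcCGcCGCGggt
SEPTIN4 start 3, chr17:58529267-58529566, minus strand: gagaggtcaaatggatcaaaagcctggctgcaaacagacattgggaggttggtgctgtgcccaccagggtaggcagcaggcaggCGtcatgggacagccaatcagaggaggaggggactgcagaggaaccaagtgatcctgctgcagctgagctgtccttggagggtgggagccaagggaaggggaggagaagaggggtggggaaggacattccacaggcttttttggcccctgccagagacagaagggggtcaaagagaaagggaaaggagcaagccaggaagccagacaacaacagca
SEPTIN4 start 4, chr17:58527945-58528244, minus strand: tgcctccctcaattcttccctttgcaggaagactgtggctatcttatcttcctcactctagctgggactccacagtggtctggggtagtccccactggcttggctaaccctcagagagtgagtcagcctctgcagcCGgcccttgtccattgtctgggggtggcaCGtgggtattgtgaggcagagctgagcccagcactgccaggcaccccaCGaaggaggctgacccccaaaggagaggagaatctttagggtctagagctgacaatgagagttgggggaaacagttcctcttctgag
SEPTIN10, chr2:109613917-109614216, minus strand: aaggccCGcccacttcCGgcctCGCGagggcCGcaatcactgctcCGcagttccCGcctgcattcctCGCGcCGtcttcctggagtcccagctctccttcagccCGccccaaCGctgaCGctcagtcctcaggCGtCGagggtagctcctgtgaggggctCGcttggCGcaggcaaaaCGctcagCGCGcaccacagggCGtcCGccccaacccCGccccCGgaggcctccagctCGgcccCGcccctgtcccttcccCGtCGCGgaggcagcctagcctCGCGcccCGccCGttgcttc
SEPTIN11, chr4:76949502-76949801, plus strand: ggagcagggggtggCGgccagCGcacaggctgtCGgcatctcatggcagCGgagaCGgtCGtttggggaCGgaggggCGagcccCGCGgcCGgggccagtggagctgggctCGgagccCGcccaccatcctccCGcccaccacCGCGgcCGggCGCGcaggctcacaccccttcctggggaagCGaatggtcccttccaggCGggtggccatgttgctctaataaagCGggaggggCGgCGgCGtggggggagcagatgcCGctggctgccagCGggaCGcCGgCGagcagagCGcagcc

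The 4 SEPTIN4 starts differed in base composition. Start 2 held 36 CG dinucleotides with 75% G+C, whereas starts 1, 3 and 4 held 1, 1 and 3, with 42.3%, 57.7% and 56.7% G+C. The SEPTIN10 and SEPTIN11 windows resembled start 2, with 33 and 31 CG dinucleotides and 72% and 74% G+C. Over all 35116 windows of 27305 genes the median was 14 CG dinucleotides (quartiles 4 and 28) and 58.7% G+C. A search of both strands for CCAAT found 2 matches in SEPTIN4 start 3 and none in the other 5 printed windows, where 34.6% of all windows hold at least 1. TGANTCA, an AP-1 type motif, matched once in SEPTIN4 start 4 and not in the other printed windows (7.71% of all windows), and TATAAA matched in none of them (11.5% of all windows). A match describes the letters of the window and does not show a bound site. The counts are summed over all transcripts of a gene, so they do not say which start was used.

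POLDIP2 itself had normalised counts of 3919, 4827 and 4798 in WT and 1063, 1248 and 1143 in POLDIP2 KO, 0.255 times the WT mean and in the direction of the labels. A normalised count is the number of reads assigned to a gene divided by a size factor for the library. Depth was 31532797 to 45795509 reads per library, and 3 reads correspond to 2.44 to 3.69 normalised counts. Of 12 RPE markers, 10 were above that floor in at least some libraries. RPE65, the isomerase of the visual cycle, was at 0 in all libraries and TYR, the tyrosinase of pigment synthesis, did not exceed 3 reads. The summed RPE marker counts were 76224 to 92197 in WT and 72583 to 100270 in POLDIP2 KO. Most of each sum came from the keratins KRT8 (34222 to 48481 over all libraries) and KRT18 (29007 to 35762). BEST1 (61.4 to 669), PMEL (36.7 to 103) and RLBP1 (19.7 to 68.2) were far lower, so the sums say little about them. The summed counts of 5 markers of other cell types were 4.72 to 10.03 in WT and 15.5 to 16.9 in POLDIP2 KO. Of the 5, 3 were above the floor in some libraries but not in all (PTPRC, PECAM1 and GFAP). PTPRC, the leukocyte marker, was at 0 in WT and at 1.23, 3.26 and 6.95 in POLDIP2 KO. The part of these markers in the septin values was not tested.

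SEPTIN4 was the gene of the 9 with the greatest fold difference between the lines. In the order of the replicate numbers, which holds for all genes given here, WT had normalised counts of 119, 118 and 76.2 and POLDIP2 KO had 533, 427 and 419. The lowest POLDIP2 KO library was thus well above the highest WT library, and the WT values rest on only 73 to 126 reads each. The means were 105 ± 24.5 in WT and 459.7 ± 63.3 in POLDIP2 KO (SD, n = 3), a ratio of 4.40. On the log2(normalised count + 1) scale the difference was 2.15 (standard error 0.24, 95% interval 1.59 to 2.71), which is a fold change of 4.43 (3.00 to 6.53). By replicate number, the log2 difference was 2.15, 1.84 and 2.44. These are bulk libraries, in which more cells expressing a gene and more RNA of it per cell cannot be told apart.

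**Figure D1:**
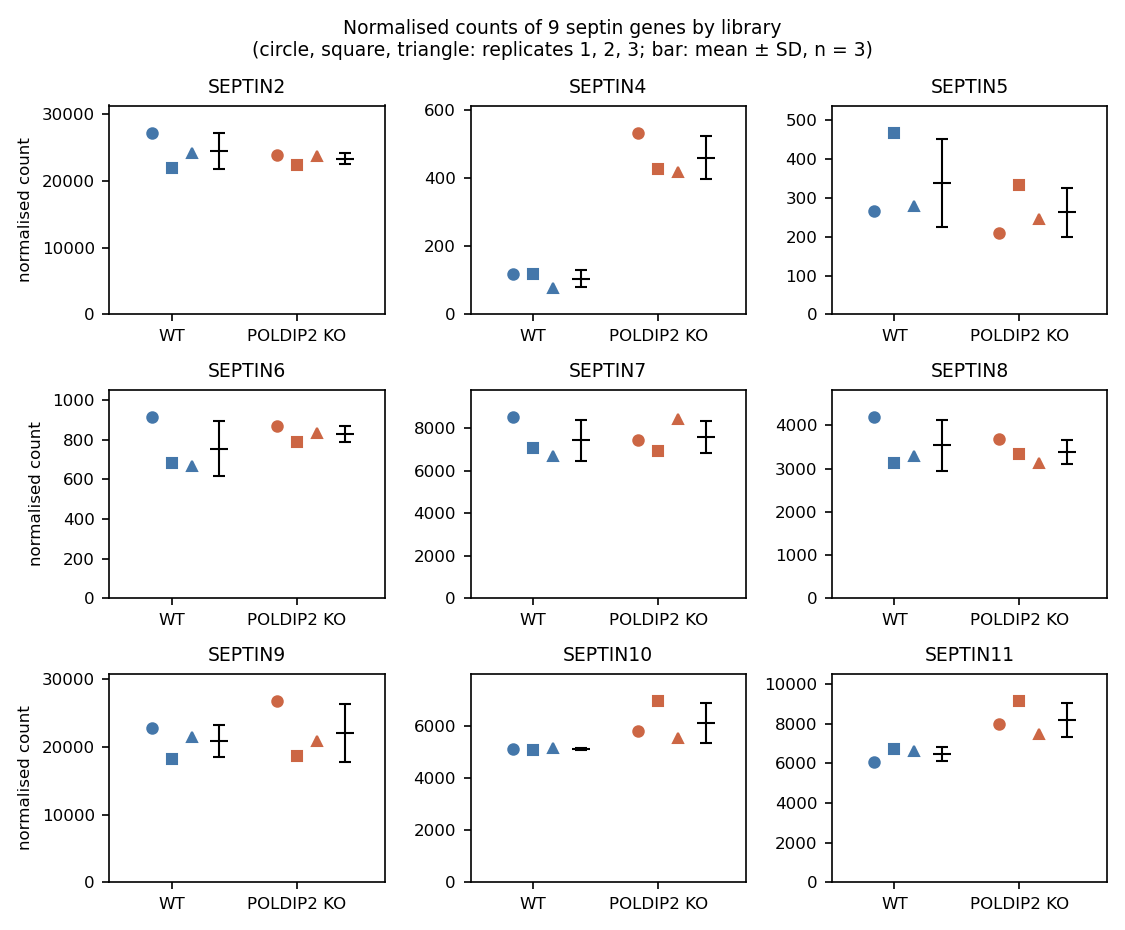
Normalised counts (vertical axes, linear, each starting at 0) of the 9 septin genes in WT (blue) and POLDIP2 KO (orange), with circles, squares and triangles for replicates 1, 2 and 3 and bars for the mean ± SD (n = 3). SEPTIN4, SEPTIN10 and SEPTIN11 are the genes with all POLDIP2 KO points above all WT points, and the ratio of the means was 4.40 for SEPTIN4, 1.19 for SEPTIN10 and 1.27 for SEPTIN11.

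Of the 14684 genes with a mean of at least 10, limma called 25 (0.17%) with a fold change over 1.5 and a Benjamini-Hochberg adjusted p value under 0.05, 12 (0.0817%) higher and 13 (0.0885%) lower in POLDIP2 KO. All 9 septins passed the filter, and 1 of them, SEPTIN4, was called higher and 0 were called lower. Since the genes were chosen on this contrast, nothing is read from that count. SEPTIN4 was 96th of all 14684 genes by log2 fold change and 9th of the 12 called higher. Its call was made in 8 of 9 other settings that used all libraries and was lost when the variance was modelled without a trend. It was also lost in all 6 fits that left out 1 library, WT or POLDIP2 KO, in which 0 to 5 genes of the whole table passed the adjusted threshold. The log2 fold change of SEPTIN4 in those 6 fits was 1.94 to 2.25.

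SEPTIN2 and SEPTIN5 belong to the same subgroup as SEPTIN4, whose members can take the same position in an oligomer. SEPTIN2, the most widely expressed of the group, had normalised counts of 27257, 21900 and 24240 in WT and 23961, 22428 and 23779 in POLDIP2 KO. SEPTIN5, best known from exocytosis in platelets and neurons, had 267, 468 and 280 in WT and 210.4, 332 and 246 in POLDIP2 KO. The groups overlapped for both genes, and WT replicate 2 stood highest for SEPTIN5. The SEPTIN2 means were 24466 ± 2686 and 23389 ± 837, a log2 difference of -0.06 (95% interval -0.34 to 0.22). The SEPTIN5 means were 338 ± 112 and 263 ± 62.6, a log2 difference of -0.34 (standard error 0.28), with all 3 same-numbered pairs lower in POLDIP2 KO.

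The SEPTIN5 value is uncertain for a further reason. Of the 1932 stretches of 100 bases in its canonical transcript, 92.9% also occur in ENSG00000284874, an annotated protein-coding gene that overlaps SEPTIN5 on the same strand, so reads of the pair can be split between the rows. ENSG00000284874 was counted at 96.4, 94.3 and 38.6 in WT and 44.3, 41.5 and 49.6 in POLDIP2 KO. Summed over the pair, WT had 415 ± 129 and POLDIP2 KO had 308 ± 60.4. The groups overlapped for the sum as well, with 318 in WT replicate 3 and 374 in POLDIP2 KO replicate 2.

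Among the SEPTIN6 group, whose members bind GTP without hydrolysing it and fill the position next to SEPTIN7 in the oligomer, SEPTIN10 and SEPTIN11 showed no overlap between the lines, with POLDIP2 KO on the higher side. SEPTIN11 had normalised counts of 6053, 6712 and 6632 in WT and 7985, 9157 and 7469 in POLDIP2 KO. SEPTIN10 had 5090.0, 5076 and 5138 in WT and 5808, 6951 and 5519 in POLDIP2 KO. For both genes POLDIP2 KO replicate 2 stood highest, and the WT libraries of SEPTIN10 lay close together. The SEPTIN11 means were 6466 ± 360.0 and 8204 ± 865, a ratio of 1.27 and a log2 difference of 0.34 (95% interval 0.07 to 0.60). The SEPTIN10 means were 5101 ± 32.6 and 6093 ± 758, a ratio of 1.19 and a log2 difference of 0.25 (95% interval -0.02 to 0.52). Neither reached a fold change of 1.5 or passed the adjusted threshold, and the intervals are for single genes without adjustment.

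The same-numbered pairs differed in size for these genes. The log2 difference of SEPTIN11 was 0.40, 0.45 and 0.17 in replicates 1, 2 and 3, and that of SEPTIN10 was 0.19, 0.45 and 0.10. Replicate 3 thus gave the smallest difference for both, whereas it gave the largest for SEPTIN4. Leaving out 1 library moved the SEPTIN11 difference between 0.26 and 0.40 and the SEPTIN10 difference between 0.15 and 0.32.

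SEPTIN6 and SEPTIN8, of the same subgroup, overlapped between the lines. SEPTIN6 had normalised counts of 916, 681 and 669 in WT and 869, 788 and 833 in POLDIP2 KO, a log2 difference of 0.15 (95% interval -0.22 to 0.52). SEPTIN8 had 4197, 3117 and 3285 in WT and 3689, 3334 and 3124 in POLDIP2 KO, a log2 difference of -0.05 (95% interval -0.39 to 0.28). WT replicate 1 was the highest library of both genes, and the POLDIP2 KO values fell inside the WT range.

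SEPTIN7 is the sole member of its subgroup and a subunit of every canonical septin oligomer, and SEPTIN9 sits at the centre of the longer oligomers and binds actin and microtubules. SEPTIN7 had normalised counts of 8536, 7068 and 6714 in WT and 7432, 6933 and 8427 in POLDIP2 KO, a log2 difference of 0.03 (95% interval -0.28 to 0.34). SEPTIN9 had 22820, 18200 and 21560 in WT and 26857, 18636 and 20874 in POLDIP2 KO, a log2 difference of 0.07 (95% interval -0.32 to 0.47). The lines overlapped for both genes, and POLDIP2 KO replicate 1 gave the highest SEPTIN9 value. WT replicate 1 was the highest WT library for SEPTIN2, SEPTIN6, SEPTIN7, SEPTIN8 and SEPTIN9 alike.

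Taking the 9 genes side by side, 6 had a log2 fold change above 0, with a median of 0.07 and a range of -0.34 to 2.15. Over all genes tested the median was -0.00 and the 5th and 95th percentiles were -0.70 and 0.61, so SEPTIN4 was the only one of the 9 outside these percentiles. All POLDIP2 KO libraries were above all WT libraries for 3 of the 9 septins, against 5.46% of all genes tested, and below for 0 of them, against 5.44% (10.9% of all genes in either direction). These counts describe genes that were chosen on the same contrast.

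**Figure D2:**
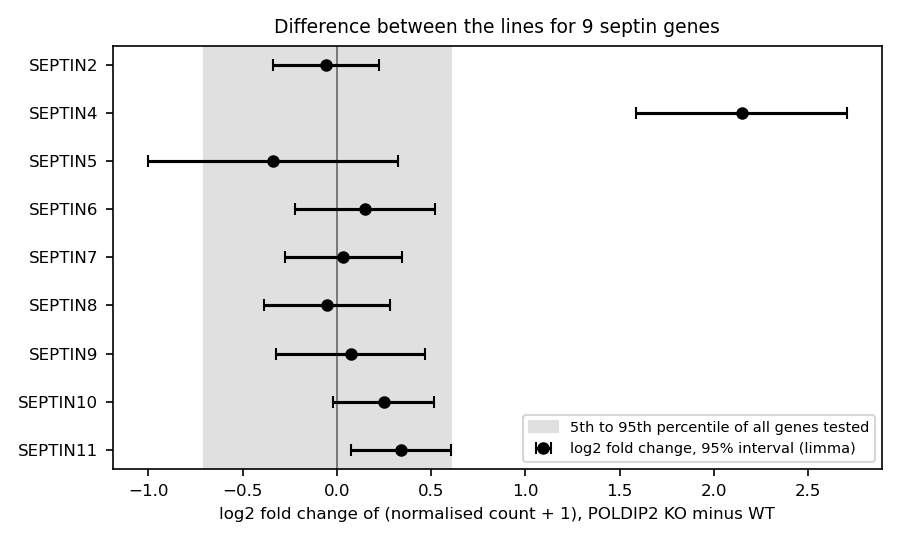
Log2 fold change of (normalised count + 1), POLDIP2 KO minus WT (horizontal axis), for the 9 septin genes, with points for the limma estimate and bars for its 95% interval (n = 3 per line). The grey band spans the 5th to 95th percentile of all 14684 genes tested (-0.70 to 0.61), and SEPTIN4 at 2.15 is the only point beyond it.

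To compare levels between genes, normalised counts were divided by the length of the GENCODE 44 canonical transcript in kilobases. In WT the highest level per kilobase was that of SEPTIN2 (7526 ± 826), followed by SEPTIN9 (5588 ± 639.8), and their libraries did not overlap. SEPTIN7 (1737 ± 226) and SEPTIN10 (1693 ± 10.8) overlapped, as did SEPTIN8 (1284 ± 211) and SEPTIN11 (1166 ± 64.9). SEPTIN6 (168 ± 31.0) and SEPTIN5 (167 ± 55.2) could not be ordered either. SEPTIN4 was the lowest of the 9 genes in WT, at 31.7 ± 7.43 per kilobase, with its highest library at 36.0 and the lowest SEPTIN5 library at 132.

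In POLDIP2 KO the level of SEPTIN4 per kilobase was 139 ± 19.2, which is close to that of SEPTIN5 at 129 ± 30.8. The libraries of these genes overlapped, at 127 to 161 for SEPTIN4 and 104 to 164 for SEPTIN5. SEPTIN6 remained above SEPTIN4 in every POLDIP2 KO library, with a lowest value of 175. SEPTIN10 (2021 ± 251) moved ahead of SEPTIN7 (1773 ± 178) in the order of the means, and SEPTIN11 (1479 ± 156) ahead of SEPTIN8 (1229 ± 104), with overlapping libraries in the first pair and none in the second. The order of SEPTIN7, SEPTIN8, SEPTIN10 and SEPTIN11 depended on which length was used. With the union of all exons as the length, the mean of SEPTIN4 stayed below that of SEPTIN5 in POLDIP2 KO, at 45.4 and 57.6 per kilobase.

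**Figure D3:**
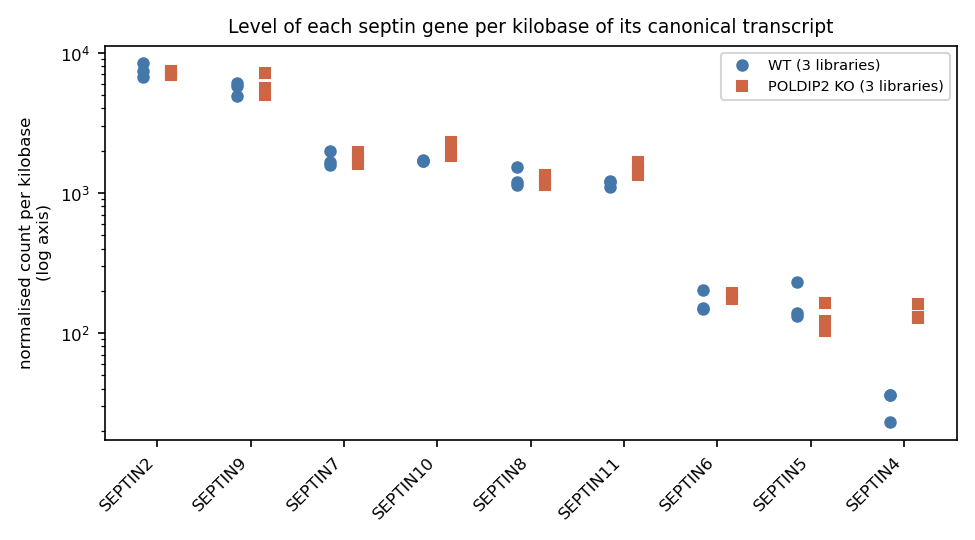
Normalised count per kilobase of canonical transcript (vertical axis, log scale) for the 9 septin genes in order of their WT mean, with a point for each of the 3 WT (blue circles) and 3 POLDIP2 KO (orange squares) libraries. SEPTIN4 is the lowest of the 9 in WT, between 23.1 and 36.0, and lies in the range of SEPTIN5 in POLDIP2 KO.

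The levels per kilobase were also summed to see what share each subgroup held. The sum over the 9 genes was 19360 ± 1735 normalised counts per kilobase in WT and 20078 ± 1225 in POLDIP2 KO. The SEPTIN2 group made up 39.9% ± 0.463 of it in WT and 37.2% ± 1.52 in POLDIP2 KO, with 39.5% in the lowest WT library and 38.5% in the highest POLDIP2 KO library. The SEPTIN6 group made up 22.3% ± 1.17 and 24.6% ± 2.91, SEPTIN9 28.8% ± 1.27 and 29.4% ± 3.80, and SEPTIN7 8.96% ± 0.697 and 8.85% ± 1.03, with overlapping libraries in each case. SEPTIN4 was a small part of the total, 0.164% ± 0.0415 in WT and 0.691% ± 0.0540 in POLDIP2 KO. Within the SEPTIN2 group its share was 0.412% ± 0.105 in WT and 1.86% ± 0.224 in POLDIP2 KO, with SEPTIN2 making up most of the rest. All these shares rest on the canonical lengths, and other lengths move the genes unequally. The WT means were 5588 for SEPTIN9 and 1693 for SEPTIN10 with the canonical length. With the union of all exons they were 1515 and 1200, so the shares of the subgroups depend on the length used.

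Of the other 4 septin genes, SEPTIN1, SEPTIN3 and SEPTIN14 passed the filter at low levels. SEPTIN3, a mainly neuronal gene of the subgroup of SEPTIN9, had normalised counts of 172, 176 and 92.9 in WT and 87.3, 76.5 and 76.5 in POLDIP2 KO. All POLDIP2 KO libraries were below all WT libraries, and WT replicate 3 lay near the POLDIP2 KO values. The ratio was 0.546 and the log2 difference -0.81 (standard error 0.30), which did not pass limma's test after Benjamini-Hochberg adjustment over all genes (adjusted p = 0.677). SEPTIN1, known from lymphocytes, had a log2 difference of -0.11 and SEPTIN14, of the SEPTIN6 group, -0.07, both with a limma adjusted p of 0.9998 and overlapping libraries. SEPTIN12, a testis gene, was at 0 in all 6 libraries, so no read was assigned to it.

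Reads can be shared with copies of septin genes elsewhere in the genome. The table holds 27 septin pseudogene rows, of which 6 passed the filter and 12 were at 0 throughout. The 14 SEPTIN7 pseudogenes together had 414.6 to 530.8 normalised counts per library, 5.07% to 7.11% of the sum of SEPTIN7 and these rows. Few stretches of 100 bases were identical, 0.311% for SEPTIN7 and 0.583% for SEPTIN10, and there were none among the 3204 of SEPTIN4 or among those of SEPTIN2, SEPTIN6, SEPTIN8, SEPTIN9 and SEPTIN11. SEPTIN4-AS1, a long non-coding RNA annotated on the opposite strand across SEPTIN4, had 0 rows in the table. The libraries were stranded, and whether the strand was used in quantification is not given in the sources used here.

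The genes whose pattern over the 6 libraries was most like that of SEPTIN4 were sought among the other 14683 genes tested. Likeness was the root mean square difference between log2 values, each centred on the mean of its gene, with smaller values meaning more alike. CASP1, the protease that activates interleukin-1 beta, was nearest (0.162), with normalised counts of 84.1, 59.2 and 44.9 in WT and 282, 225.5 and 238 in POLDIP2 KO. DIRAS1, a small GTPase of the Ras family, followed (0.237), with 166, 166 and 105 in WT and 513, 412 and 481 in POLDIP2 KO. Like SEPTIN4, both had their lowest value in WT replicate 3 and their highest in POLDIP2 KO replicate 1, a likeness the search selected for.

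The next in order were ENSG00000229353 (0.289), ENSG00000112096 (0.305) and TNFRSF9 (0.325), a costimulatory receptor of the TNF receptor family. Neither ENSG identifier was paired with a symbol in the reference used here, so either may belong to a gene known by name. ENSG00000112096 had 4619, 5447 and 5949 in WT and 29268, 23644 and 22446 in POLDIP2 KO. TNFRSF9 had 96.4, 98.3 and 106.5 in WT and 770.1, 485 and 432 in POLDIP2 KO. The other 8 of the 9 septins ranked far behind. SEPTIN4 has a large difference between the lines, which the measure includes, so septins with smaller differences had to rank behind. SEPTIN11 was nearest at 0.945, rank 834, SEPTIN10 followed at 0.987, rank 1374, and SEPTIN5 was the farthest of these 8 at 1.30, rank 12431.

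The genes around SEPTIN4 on chromosome 17 were compared in the same way. Of 43 annotated genes that start within 500 kb of its start, 21 were in the table and 7 passed the filter. By limma with Benjamini-Hochberg adjustment 0 of the 7 were called, against 0.17% of all genes tested, and 0 had an unadjusted p value under 0.05, against 6.48%. Their log2 fold changes ran from -0.48 (PPM1E, a phosphatase, adjusted p = 0.981 by limma) to 0.05 (MKS1, a protein of the ciliary transition zone), with a median of -0.04. All POLDIP2 KO libraries were below all WT libraries for 1 of the 7, PPM1E, against 5.44% of all genes tested, and above for 0. PPM1E had normalised counts of 66.1, 54.2 and 45.9 in WT and 43.1, 35.8 and 38.7 in POLDIP2 KO. MTMR4, a lipid phosphatase and the nearest tested neighbour at 26.5 kb, had normalised counts of 1713, 1741 and 1941 in WT and 1522, 1481 and 2758 in POLDIP2 KO, a log2 difference of 0.03 (95% interval -0.54 to 0.61). SEPTIN4 was chosen on this contrast, so its difference from these neighbours is a description with no test. The other 4 tested neighbours were DYNLL2, a dynein light chain, TSPOAP1, SUPT4H1, an elongation factor, and RAD51C, a recombination protein.

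**Figure D4:**
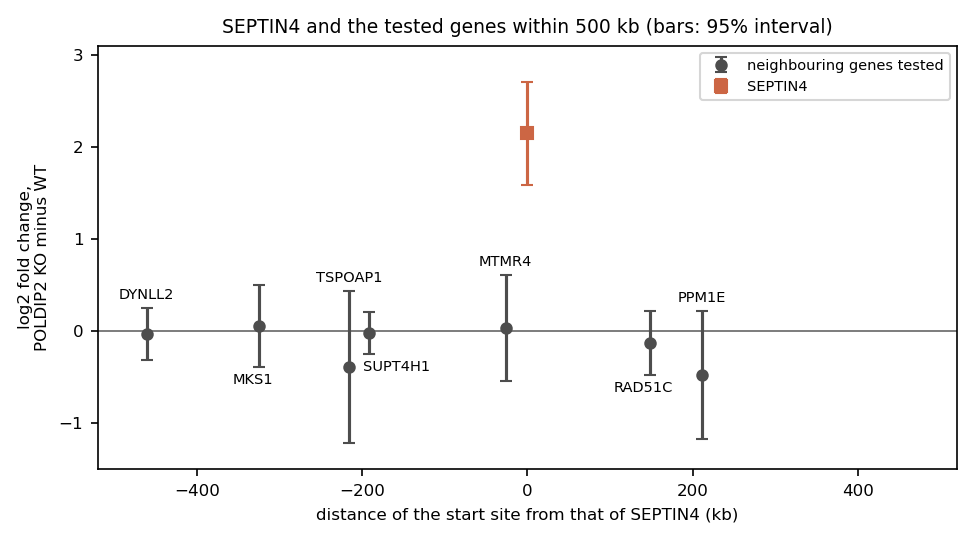
Log2 fold change, POLDIP2 KO minus WT (vertical axis), against the distance of the start site from that of SEPTIN4 in kb (horizontal axis), for SEPTIN4 (orange square) and the 7 tested genes within 500 kb (grey circles), with 95% intervals from limma (n = 3 per line). The neighbours lie between -0.48 and 0.05, and SEPTIN4 at 2.15.

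Proteins that bind septins or act on them were examined next. The small GTPase CDC42, its septin-organising effectors CDC42EP1 to CDC42EP5, and anillin (ANLN), which anchors septins in the cleavage furrow, formed a list of 7 genes. CDC42EP5 was too low to be tested. Of the other 6, limma called 0, against 0.17% of all genes tested, and 0 had an unadjusted p value under 0.05, against 6.48%. All 6 had overlapping libraries, where 10.9% of all genes tested had none. Their log2 fold changes ran from -0.14 (CDC42EP3) to 0.06 (CDC42), with a median of -0.03. ANLN had normalised counts of 17439, 9673 and 13824 in WT and 11407, 12933 and 12828 in POLDIP2 KO, so the POLDIP2 KO libraries lay inside the WT range.

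Cytokinesis is the process in which septin rings are best known, and 15 of its genes were listed. All 15 were tested, limma called 0, against 0.17% of all genes tested, and 0 had an unadjusted p value under 0.05, against 6.48%. At these shares a count of 0 does not set the list apart. The median log2 fold change was -0.15, against -0.00 over all genes tested, and 3 of the 15 (RHOA, CHMP4B and MYH10) were above 0. The lowest was CIT, citron kinase of the midbody, with 2302, 1623 and 2252 in WT and 1613, 1234 and 1713 in POLDIP2 KO. Its log2 difference was -0.43 (limma adjusted p = 0.789), with the WT replicate 2 value inside the POLDIP2 KO range.

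The last list gave 14 genes of apoptosis, with XIAP and BCL2, which the ARTS isoform of SEPTIN4 is known to bind, SIAH1, a ubiquitin ligase that acts in the same pathway, and regulators of caspase activation. All 14 were tested and limma called 0, against 0.17% of all genes tested, with 2 at an unadjusted p value under 0.05, against 6.48%. The median log2 fold change was -0.01. XIAP had normalised counts of 3305, 3177 and 2569 in WT and 3726, 2692 and 3235 in POLDIP2 KO, a log2 difference of 0.09 (95% interval -0.28 to 0.46) with overlapping libraries. For BCL2 the log2 difference was -0.13 and for SIAH1 it was -0.00, also with overlap.

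All POLDIP2 KO libraries were above all WT libraries for 3 of the 14 apoptosis genes, against 5.46% of all genes tested, and none of the 3 passed limma's adjusted test. The list was chosen with earlier results of these data known, so nothing is read from its counts. BIRC3, an inhibitor of apoptosis induced through NF-kB, had normalised counts of 220.1, 255 and 423 in WT and 610.2, 625 and 546 in POLDIP2 KO. Its log2 difference was 1.04 (standard error 0.25, limma adjusted p = 0.291). BIRC2, its close relative, had 2178, 1967 and 2275 in WT and 2549, 2537 and 2891 in POLDIP2 KO, a log2 difference of 0.31 (limma adjusted p = 0.610). MCL1, a survival protein of the BCL2 family, had a log2 difference of 0.21 (limma adjusted p = 0.802). The initiator caspase CASP9 was at -0.04, with overlapping libraries.

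**Figure D5:**
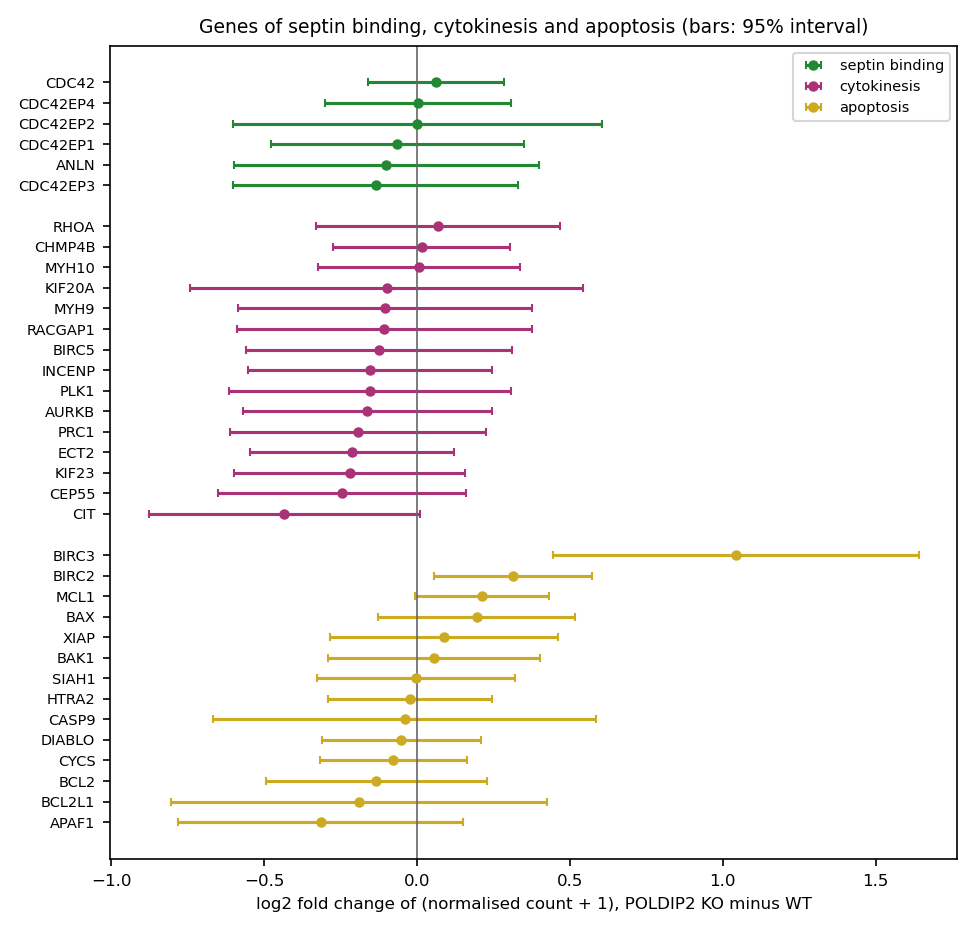
Log2 fold change of (normalised count + 1), POLDIP2 KO minus WT (horizontal axis), for the tested genes of septin binding (green, 6 genes), cytokinesis (purple, 15) and apoptosis (yellow, 14), with bars for the 95% interval from limma (n = 3 per line). BIRC3 at 1.04 and BIRC2 at 0.31 are the genes whose interval does not reach 0, and neither passed the adjusted test.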

How the data were processed

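RNA of WT and POLDIP2 KO ARPE-19 cells (3 biological replicates each, day 3) was analysed from the authors' table of normalised counts. The signal values deposited by the authors are read numbers per gene over a size factor, made with Salmon 1.8, tximport and DESeq2 1.34.0 on GRCh38, versions as in the submitters' processing notes; the annotation release is not given in the sources used here. All values of a column were whole multiples of its smallest value above 0 (tolerance 0.001), which gave the depth and the reads quoted. In WT replicate 2 and POLDIP2 KO replicate 3 this step is near 1, so that wholeness says little there. All columns were used.

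The lines were compared with limma 3.58.1 (lmFit, eBayes with trend) in R 4.3.3, with Benjamini-Hochberg adjustment. It took log2(normalised count + 1) of each gene that reached a mean of 10. A fold change on this scale understates that of low genes. Calls needed a fold change over 1.5 and adjusted p under 0.05. Symbols (34152 of 37902 genes), positions and transcript lengths came from GENCODE 44 on GRCh38, and promoters from RefSeq. The fit was tested on simulated data, and the outcome is not reported here and not used as support for the calls. Python 3.11.15 was used for the other steps.

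The septin genes and the lists were chosen with earlier results of these data known. The genes open to be named were all 9 members, the other septin genes, the members of the lists, POLDIP2, the markers and the 5 genes with the pattern most like SEPTIN4. A few genes first chosen for the lists and markers are not reported here and entered neither the counts nor the plots. To check whether replicate numbers pair the libraries, values centred within each line were correlated over 14684 genes: same-numbered libraries gave 0.315, 0.137 and 0.129, and the others -0.259 to 0.147. The highest of the others, 0.147, exceeded 0.137 and 0.129, so the check does not settle whether the numbers pair the libraries. A block for the replicate number was fitted as an alternative. Other alternatives were pseudocounts, filters, scalings, variance models, transcript lengths and leaving out each library.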

Additional observations from a re-analysis of the deposited data

How the results depend on the processing

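All 135 alternative values of the log2 fold changes of the 9 septins stayed within the spread between replicates. Much of this was fixed in advance. Filters, variance models and the replicate block leave a fold change as it is. Leaving out 1 library of a line cannot move it by more than that spread. SEPTIN4 ranged from 2.10 to 2.17 with all libraries. Genes that were not called could change sign when 1 library was left out, for example SEPTIN2 (-0.14 to 0.02), SEPTIN7 (-0.04 to 0.14), SEPTIN8 (-0.14 to 0.08) and SEPTIN9 (-0.07 to 0.19), while SEPTIN5 ran from -0.52 to -0.08. Counts over all genes depended on the libraries. With 1 library left out, limma called 0 to 3 genes higher and 0 to 2 lower, and with a filter at a mean of at least 50 it called 6 lower. With the replicate block, 30 genes passed the adjusted threshold against 25 without it, SEPTIN4 among them. The block changed no other call of a septin, and the pairing check does not settle whether it is warranted. The lists had 0 calls in every setting.

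Levels per kilobase in WT depend on the length used. With the longest transcript they were 6611 for SEPTIN2, 1053 for SEPTIN7, 804 for SEPTIN8, 4687 for SEPTIN9 and 1650.4 for SEPTIN10. With the union of all exons they were 3316 for SEPTIN2, 10.3 for SEPTIN4, 74.1 for SEPTIN5, 121 for SEPTIN6, 434 for SEPTIN7, 458 for SEPTIN8, 1515 for SEPTIN9, 1200.1 for SEPTIN10 and 664 for SEPTIN11. Among the 9 genes SEPTIN2 and SEPTIN9 stayed highest and SEPTIN4 lowest in WT with each length. The planned edgeR and DESeq2 tests on recovered reads were not run, because the step is near 1 in 2 libraries. With 3 libraries a line, the intervals of the septins other than SEPTIN4 reach 0.22 to 0.60 on the log2 scale at their upper end.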
